A study of Mus musculus with 12 samples.

Results

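The transcripts described here come from 31 genes by which hepatocytes, the parenchymal cells of the liver, are known, measured in cultures of Kupffer cells, the macrophages that live in that organ, from mice. The 31 genes were listed by name, and a gene was kept where a probe annotated to it was detected on at least 2 of the 12 arrays, that is, brighter than negative control beads at a detection p under 0.05. Of the 31 genes, 22 were kept, and they made up 22 of the 10255 genes tested and 28 of the 13678 probes kept.

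RNA was measured on 12 Illumina bead arrays of Kupffer cells from male C57BL/6 animals aged 8 weeks, 2 arrays in each of 6 groups. The cells were separated from perfused, collagenase-digested livers on a density gradient and plated in serum-containing medium. The groups were cells with no named treatment (M0), cells given lipopolysaccharide (LPS) at 10 ng/ml, which the labels call M1, cells given interleukin 4 (IL-4) at 20 ng/ml, called M2, cells given the solvent DMSO (vehicle), and cells given SR3335, which by its label turns down the nuclear receptor RORα (an inverse agonist), or SR1078, by its label a ROR agonist. The labels print 10 mM for SR3335 and 5 mM for SR1078, units that are in doubt, and 24 h for every group but M0, which has no time. No label says whether arrays of 1 group stem from different animals or culture dishes, and p-values then cover only the spread between arrays, which may be technical.

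An array detected from 44.7% to 49.1% of its 25697 probes, and the replicates of a group correlated over genes at r = 0.9916 to 0.997. The arrays of M0, LPS and IL-4 form 1 set, whose background lay between 156 and 164 signal units, and those of vehicle, SR3335 and SR1078 a second set, whose background lay between 94.4 and 105. Kupffer cell and macrophage markers were detected for 10 of the 11 genes with a probe (Cd5l was the exception), and their summed linear level was 184800 to 192200 in M0 and 110800 to 113700 in vehicle. Such a sum follows its brightest genes, above all C1qb (log2 15.54 and 15.59 in M0, 14.72 and 14.81 in vehicle). Clec4f and Timd4 went the other way, as given below, so the sum does not measure the number of Kupffer cells. The number of arrays limits the precision of every value.

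Hepatocytes make most of the proteins of blood plasma, among them albumin, transport proteins, apolipoproteins, clotting factors and protease inhibitors, and they hold the enzymes that clear ammonia, amino acids, purines and drugs. Many of these genes are switched on together by liver-enriched transcription factors, including HNF1, HNF4 and the C/EBP family, that bind near the start of the gene. Several of the encoded plasma proteins are acute phase proteins, whose production changes in inflammation. Macrophages also make a few of them, such as apolipoprotein C1.

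The promoters of 5 members are shown because each carries letters of such a factor's site or, for Cyp2e1, of a TATA box close to the start. They are the 250 bases before the RefSeq start of the gene in the mouse build GRCm38.p6, and capitals mark every match to the HNF1 half-site GTTAAT, the HNF4 motif CAAAGTCCA or the C/EBP motif TTGCNNAA on either strand, or to the TATA box TATAAA on the gene's strand. No matches overlapped in these 5 sequences.
Alb, chr5:90460620-90460869, plus strand: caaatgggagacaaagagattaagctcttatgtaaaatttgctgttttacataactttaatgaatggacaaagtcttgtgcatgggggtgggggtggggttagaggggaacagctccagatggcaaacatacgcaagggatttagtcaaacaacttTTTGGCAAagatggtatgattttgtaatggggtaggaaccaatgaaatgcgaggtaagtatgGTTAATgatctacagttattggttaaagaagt
Fga, chr3:83025903-83026152, plus strand: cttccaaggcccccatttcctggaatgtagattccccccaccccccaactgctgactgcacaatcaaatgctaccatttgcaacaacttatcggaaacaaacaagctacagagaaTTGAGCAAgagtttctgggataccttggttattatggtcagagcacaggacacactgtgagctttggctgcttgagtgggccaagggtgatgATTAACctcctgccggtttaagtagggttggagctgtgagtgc
Serpina1b, chr12:103738190-103738439, minus strand: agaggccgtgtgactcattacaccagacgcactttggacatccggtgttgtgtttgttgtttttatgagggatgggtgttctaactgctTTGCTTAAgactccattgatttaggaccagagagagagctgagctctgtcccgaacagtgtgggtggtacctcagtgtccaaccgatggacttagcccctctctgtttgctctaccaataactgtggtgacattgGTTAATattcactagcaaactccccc
Ahsg, chr16:22891765-22892014, plus strand: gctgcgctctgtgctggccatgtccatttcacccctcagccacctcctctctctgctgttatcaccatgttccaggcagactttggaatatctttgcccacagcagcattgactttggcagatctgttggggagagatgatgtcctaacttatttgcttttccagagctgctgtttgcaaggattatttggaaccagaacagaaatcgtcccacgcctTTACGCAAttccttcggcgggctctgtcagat
Cyp2e1, chr7:140763569-140763818, plus strand: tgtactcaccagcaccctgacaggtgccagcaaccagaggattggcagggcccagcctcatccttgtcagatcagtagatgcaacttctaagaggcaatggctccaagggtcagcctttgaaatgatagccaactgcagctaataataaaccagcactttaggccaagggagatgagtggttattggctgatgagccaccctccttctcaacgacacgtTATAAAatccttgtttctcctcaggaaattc

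In Alb, Fga and Serpina1b the HNF1 letters began 32, 43 and 26 bases before the start. The TATA box of Cyp2e1 began 31 bases before it, and the C/EBP match of Ahsg 32 bases before it. RefSeq promoters were matched for 24 of the 31 members, 26 promoters in all since Apoa2 and Rbp4 each have a pair. The HNF1 half-site was present in 7 of the 26, against 6.43% of 32851 mouse promoters of the same length. The C/EBP motif was present in 11 of 26 against 9.56%, the TATA box in 6 against 7.59% and the HNF4 motif in 1, that of Cyp3a11, against 0.384%. A match is a run of letters and not a measured binding site.

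Of the 8 plasma carriers and binding proteins listed, 6 were kept. Albumin, the most abundant plasma protein and the usual marker of hepatocytes, was not among them. The Alb probe had deposited signals of 157 and 161 on the M0 arrays, 135 and 142 with LPS and 146 and 148 with IL-4. Its signals were 96.8 and 100.3 in vehicle, 96.5 and 106 with SR3335 and 99.6 and 106 with SR1078. These lie at the background of each array set, and the lowest detection p on any array was 0.318. The label of these transcripts as those of hepatocytes therefore rests on the other 2 markers named for it, Ttr and Apoa1, which were detected on all 12 arrays.

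Also undetected on every array were Fgb, which encodes the fibrinogen beta chain, Serpinc1, which encodes antithrombin, the urea cycle genes Cps1 and Otc, Tat, a tyrosine-degrading enzyme, and Fabp1, the fatty acid carrier of liver cells. Gc and Apob had no probe annotated to them and were not analysed here. Nearest the detection threshold from inside were Apoh and Hpd, each detected on 4 arrays. Nearest from outside were Cps1 and Serpinc1, detected on 0 arrays, with lowest detection p values of 0.0677 and 0.0689.

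Ttr encodes transthyretin, a carrier of thyroid hormone and of retinol-binding protein. The normalized log2 levels of Ttr were 7.96 and 7.92 on the M0 arrays, 8.04 and 7.43 with LPS and 7.55 and 7.31 with IL-4. They were 11.63 and 11.71 in vehicle, 12.23 and 11.74 with SR3335 and 11.95 and 11.82 with SR1078. All 6 arrays of the second set lay above all 6 of the first. In vehicle Ttr was 13.2-fold higher than in M0 (log2 3.73 ± 0.21, SE of the fit, n = 2 arrays per group, limma with Benjamini-Hochberg adjustment, adjusted p = 1.17e-06).

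Apoa1 encodes the main protein of high density lipoprotein. Its log2 levels were 7.03 and 7.01 in M0, 6.66 and 6.59 with LPS and 6.99 and 6.40 with IL-4. They were 10.39 and 10.64 in vehicle, 11.08 and 10.68 with SR3335 and 11.02 and 10.76 with SR1078. The sets were again apart on every array, and Apoa1 was 11.3-fold higher in vehicle than in M0 (log2 3.50 ± 0.20, limma adjusted p = 1.35e-06).

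**Figure D1:**
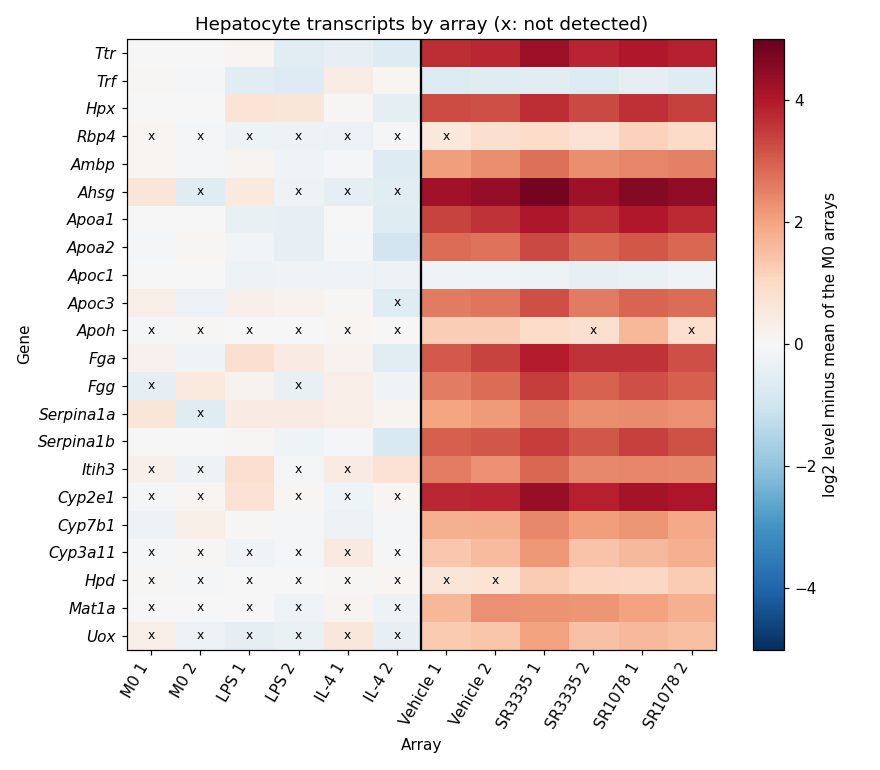
Each cell is 1 of the 22 kept members (rows) on 1 of the 12 arrays (columns), coloured by its normalized log2 level minus the mean of the M0 arrays, with an x where the member was not detected. On the 6 arrays right of the line all members but Trf and Apoc1 lie above their M0 level, and SR3335 1 is the darkest column for most members.

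The comparison of vehicle with M0 spans the array sets. The array set, the culture time, the solvent and any difference between the cell preparations cannot be told apart in it, and as in any bulk sample, fewer cells of a type and less RNA per cell cannot be told apart either. Of the 10 members detected on all 12 arrays, 8 were higher in vehicle and 2 were lower, all past the limma threshold of an adjusted p of 0.05. Of all genes tested, 28.7% were called higher and 35.2% lower, 63.9% in all, and in 38.2% both vehicle arrays lay above both M0 arrays and in 45.2% below. Over the 7623 genes detected on all 12 arrays the shares were 28.2% higher and 41.1% lower. Of the other kept members, Rbp4, Apoh, Cyp3a11, Hpd, Mat1a and Uox were detected on 0 arrays of the first set and Cyp2e1 on 1, with LPS. These 7 passed the detection filter only through the second set, so their values in this comparison are a description, and no count over all 22 is read against the background.

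Among the other carriers, Hpx, which encodes the heme scavenger hemopexin, was 9.47-fold higher in vehicle (log2 3.24 ± 0.19, limma adjusted p = 1.3e-06). Ambp, which encodes the precursor of alpha-1-microglobulin and bikunin, was 4.62-fold higher (log2 2.21 ± 0.22). Ahsg, which encodes the mineral-binding protein fetuin A, differed by log2 4.29 ± 0.38, and it was detected on 1 of the M0 arrays. Rbp4, the retinol carrier that travels bound to transthyretin, was detected on 1 vehicle array and no M0 array, and no fold is given for it.

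Apolipoproteins coat the lipid particles of plasma. Apoa2, of high density lipoprotein, was 6.7-fold higher in vehicle (log2 2.74 ± 0.26, limma adjusted p = 2.41e-05), and Apoc3, an inhibitor of lipoprotein lipase, 6.25-fold higher (log2 2.64 ± 0.27). Apoh, which encodes a phospholipid-binding plasma protein, was undetected in M0 and lay at least 1.1-fold higher in vehicle. Such a bound sets the vehicle mean against the dimmest probe that was still detected on each M0 array.

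Both detected fibrinogen chains were higher, Fga 9.3-fold (log2 3.22 ± 0.27, limma adjusted p = 1.19e-05) and Fgg 6.37-fold (log2 2.67 ± 0.32). Fgg was detected on only 1 of the M0 arrays. Serpina1a and Serpina1b encode mouse forms of alpha-1-antitrypsin, the elastase inhibitor of plasma. Serpina1b was 8.3-fold higher and Serpina1a, detected on only 1 of the M0 arrays, 4.18-fold higher. The Serpina1 genes are close copies of each other, so their probes may share signal. Itih3, a heavy chain of the inter-alpha-trypsin inhibitors, was at least 3.15-fold higher.

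Of the 3 cytochromes P450, Cyp7b1, an oxysterol hydroxylase of bile acid synthesis, was detected on all arrays and was 3.5-fold higher in vehicle (log2 1.81 ± 0.19). Cyp2e1, which oxidizes ethanol and small toxins, and Cyp3a11, a drug-oxidizing enzyme, were undetected in M0 and kept only through the second set. Their vehicle levels lay at least 10.6-fold and at least 1.58-fold above M0. Of the metabolic enzymes, Mat1a, which makes S-adenosylmethionine in liver, lay at least 2.56-fold above M0 and Uox, the urate oxidase, at least 1.61-fold, and both were likewise kept only through the second set. Hpd, which degrades tyrosine, was detected on no array of either group.

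The 2 members that went the other way were Trf and Apoc1. Trf encodes transferrin, the iron carrier of plasma. The log2 levels of Trf were 12.25 and 12.12 in M0 and 11.52 and 11.58 in vehicle, a fall of 1.55-fold (log2 -0.63 ± 0.11, limma adjusted p = 0.000768). Apoc1 had log2 levels of 14.96 and 15.01 in M0 and 14.77 and 14.76 in vehicle (log2 -0.22 ± 0.08, adjusted p = 0.0471). That call was lost with median centring (-0.051), and in the authors' values the sign turned (0.084). It was also lost in a fit with every kept probe (limma adjusted p = 0.0549). There a second probe of Apoc1 was at -0.056 (limma adjusted p = 0.519).

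**Figure D2:**
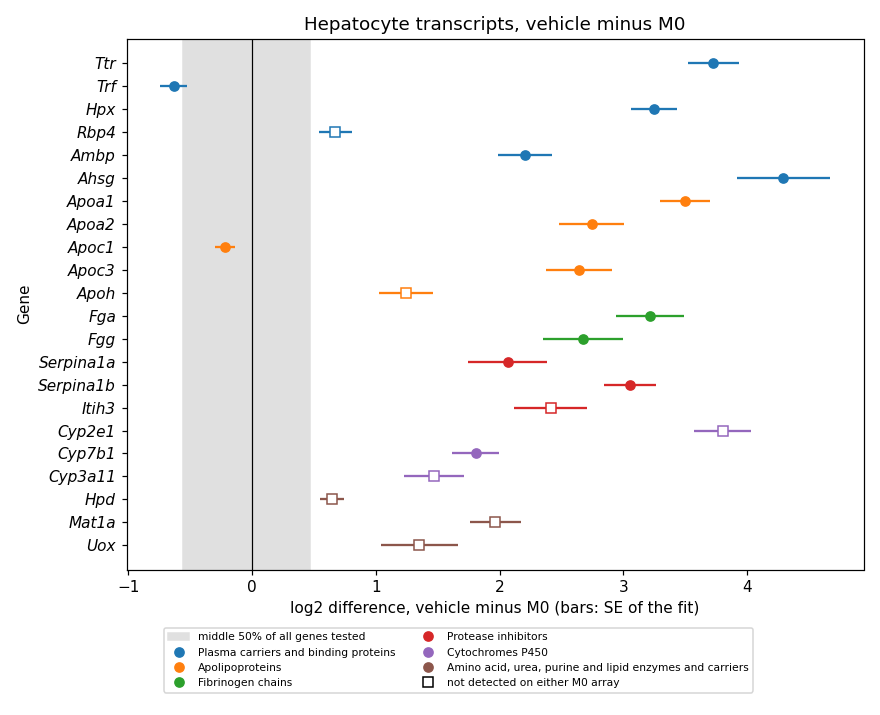
Points are log2 differences, vehicle minus M0, of the 22 kept members by role, with the SE of the fit as bars, and open squares mark members detected on neither M0 array. The grey band holds the middle 50% of all genes tested, and only Apoc1 lies within it, while Trf lies just below it at -0.63 and Ahsg farthest above it at 4.29.

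The size of these differences depended on how background was handled between the sets. The log2 difference of Ttr was 3.159 without background correction and 3.088 in the authors' values, which were normalized within each set separately. That of Apoa1 was 2.599 and 2.494, and that of Hpx 2.851 and 2.769. Over the 10 members detected on all 12 arrays the median was 2.90 in the fit used here, and over all genes detected on all 12 it was -0.12. In the authors' values the dim members Apoh (0.114), Cyp3a11 (0.156) and Uox (0.135) no longer passed, Hpd turned to -0.163, and Rbp4 turned to -0.225 with a limma adjusted p of 0.0177. The 8 higher members detected on all arrays passed in the same direction in every alternative that was run.

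Other hepatocyte genes were examined from a list of 89. Of these 80 had a probe and 48 were detected on at least 2 arrays, and 13 on all 12. Of these 13, 6 were higher in vehicle than in M0 and 3 lower (median log2 0.23), beside 28.2% and 41.1% of the 7623 genes so detected. Over the 48 the counts were 35 and 3, but they include genes kept only through the second set and are not read against all genes. The largest differences measured on both sides were in Hamp, which encodes the iron hormone hepcidin (log2 4.67 ± 0.27, limma adjusted p = 1.37e-06), Cyp2d9 (2.97 ± 0.29) and Azgp1 (2.79 ± 0.16). Crp, which encodes C-reactive protein, was undetected in M0 and lay at least 6.31-fold higher in vehicle.

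Markers of other liver cells were examined in the same comparison, in which 28.7% of all genes tested were called higher and 35.2% lower. Of 10 Kupffer cell and macrophage markers tested, 6 were lower in vehicle and 2 higher (median log2 -0.77). Among the lower were C1qa at -1.45 ± 0.07, Lyz2 at -1.43 ± 0.07 and C1qc at -1.28 ± 0.09. The 2 higher were Timd4 at 1.80 ± 0.12 and Clec4f at 0.69 ± 0.08. Of 10 sinusoidal endothelial markers, 4 were higher and 2 lower, with Lyve1 at 4.77 ± 0.23, Dnase1l3 at 3.51 ± 0.11, Oit3 at -2.08 ± 0.14 and Eng at 1.29 ± 0.09. Of 5 stellate cell and fibroblast markers, 2 were higher, Dcn at 3.34 ± 0.19 and Reln by at least 2.27-fold. Reln was undetected on every array of the first set, so it was kept only through the second. Acta2 (-0.07 ± 0.09) and Des (0.045 ± 0.11) did not pass, and Col1a2 was detected on no array of either group. Col1a1, Col3a1, Lrat and Pdgfrb were not detected.

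The remaining lists were small, and their counts stand beside the same 28.7% and 35.2% of all genes. Of 6 lymphocyte markers, 3 were higher and 1 lower, with Cd79a, undetected in M0, at least 2.52-fold higher, and of 2 red cell markers Hba-a1 was higher (1.80 ± 0.14). Of 2 cholangiocyte markers Krt7, undetected in vehicle, was at least 1.51-fold lower, and Krt19, Sox9 and Tspan8 were not detected. The summed level of Ttr and Apoa1 was 371.2 to 380.1 in M0 and 4509 to 4946 in vehicle, and that of the endothelial markers 7510 to 7554 and 17050 to 17840. The stellate cell markers summed to 746.1 to 778 in M0 and 3749 to 3838 in vehicle. Linear sums follow the brightest genes of a list. In vehicle these were Dcn for the stellate cell markers (log2 11.69 and 11.67) and Dnase1l3 for the endothelial markers (13.08 and 13.15). The part of any of these cells in the hepatocyte levels was not tested.

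**Figure D3:**
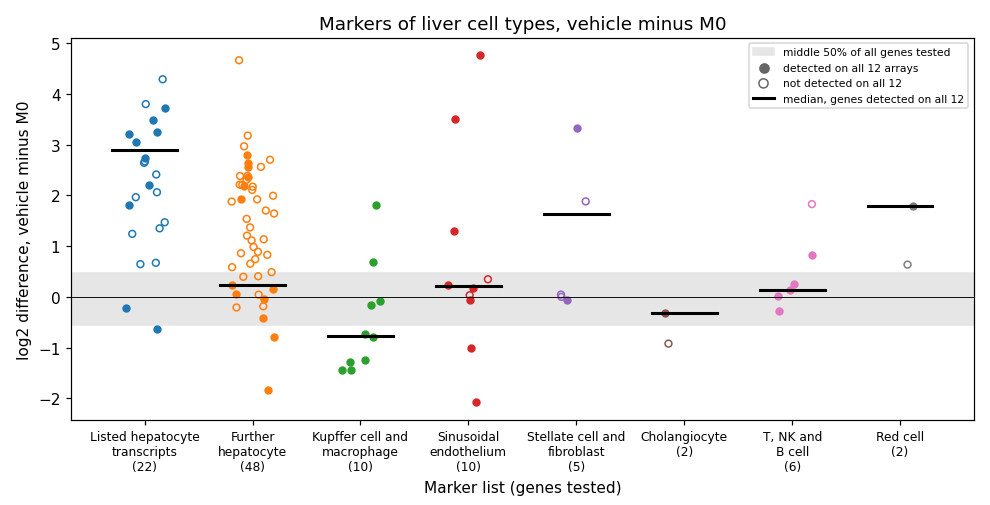
Each point is 1 gene's log2 difference, vehicle minus M0, grouped by the marker list it belongs to, with the number of genes tested in brackets, filled where the gene was detected on all 12 arrays and open where it was not, and a bar at the median of the filled points. That median is 2.90 for the listed hepatocyte transcripts, 0.23 for the further hepatocyte genes and -0.77 for the macrophage markers.

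Within the first set, few members differed between treatments. M0 has no time on its label, so in comparisons with M0 a treatment and any difference in culture time cannot be told apart. With LPS against M0, 2 of 22 members passed the limma threshold, Hpx higher and Trf lower. Of all genes 30.3% passed, 13.5% higher and 16.9% lower. With IL-4 against M0, 0 of 22 passed and 2 had an unadjusted limma p under 0.05, where 19.6% of all genes passed after adjustment. Between LPS and IL-4, 2 of 22 passed, the same Hpx and Trf, against 36.5% of all genes, 18% higher and 18.4% lower. Hpx and Trf are among the 10 members detected on all 6 arrays of this set. Of these 10, 2 passed with LPS against M0, 0 with IL-4 against M0 and 2 between LPS and IL-4. Of the 7816 genes so detected, 33.8%, 22.1% and 41.1% passed. Over these 10 the median difference from M0 was -0.14 with LPS and -0.28 with IL-4, and over the 7816 genes so detected it was -0.03 and -0.04.

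Hemopexin is an acute phase protein. The log2 levels of Hpx were 8.54 and 8.50 in M0, 9.21 and 9.11 with LPS and 8.57 and 8.02 with IL-4. Both LPS arrays lay above the other 4. Hpx rose 1.56-fold with LPS over M0 (log2 0.64 ± 0.19, limma adjusted p = 0.0302) and was 1.82-fold higher with LPS than with IL-4 (0.87 ± 0.19, adjusted p = 0.00668). The first call was lost with median centring (adjusted p = 0.0916), with each set fitted on its own (0.0708) and whenever 1 array was left out (0.0769 to 0.117), and the second when only those groups were fitted (0.061).

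Transferrin is known in humans as a plasma protein whose level falls in inflammation, and macrophages can make it too. The log2 levels of Trf were 12.25 and 12.12 in M0, 11.66 and 11.55 with LPS and 12.54 and 12.28 with IL-4. Both LPS arrays lay below the other 4, and both IL-4 arrays lay above both M0 arrays. Trf fell 1.5-fold with LPS (log2 -0.58 ± 0.11, limma adjusted p = 0.00383) and lay 1.75-fold below its IL-4 level (-0.81 ± 0.11, adjusted p = 0.000523). With IL-4 it differed from M0 by 0.22 ± 0.11, which did not pass (adjusted p = 0.178).

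The next nearest was Fga, with a difference between LPS and IL-4 of 0.79 ± 0.27 that missed the threshold (limma adjusted p = 0.0525). Ttr differed from M0 by -0.21 ± 0.21 with LPS and by -0.51 ± 0.21 with IL-4, and neither passed. Apoa1 differed by -0.40 ± 0.20 with LPS and by -0.32 ± 0.20 with IL-4, and neither passed.

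Of the 48 further hepatocyte genes, 5 rose and 3 fell with LPS, beside the 13.5% and 16.9% of all genes. Of the 13 detected on all 6 arrays, 6 passed, beside 33.8% of all genes so detected. Among those called were Hp, which encodes the hemoglobin-binding acute phase protein haptoglobin (1.56 ± 0.20), Urah, an enzyme of urate breakdown (1.40 ± 0.12), Cyp27a1, a sterol hydroxylase (-2.20 ± 0.09), and F9, which encodes clotting factor IX (-1.64 ± 0.22). With IL-4, 3 of 48 fell, where 19.6% of all genes passed in either direction, Hamp (-0.92 ± 0.27), F9 (-0.82 ± 0.22) and Cyp27a1 (-0.44 ± 0.09). Between LPS and IL-4, 6 of 48 were higher with LPS and 3 lower, beside 18% and 18.4% of all genes, with Hp at 1.99 ± 0.20 and Hamp at 1.39 ± 0.27. Hamp was detected on only 1 of the IL-4 arrays, which limits both of its values here. Cyp27a1 and F9 were also lower in vehicle than in M0, by -1.83 ± 0.09 and -0.78 ± 0.22.

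**Figure D4:**
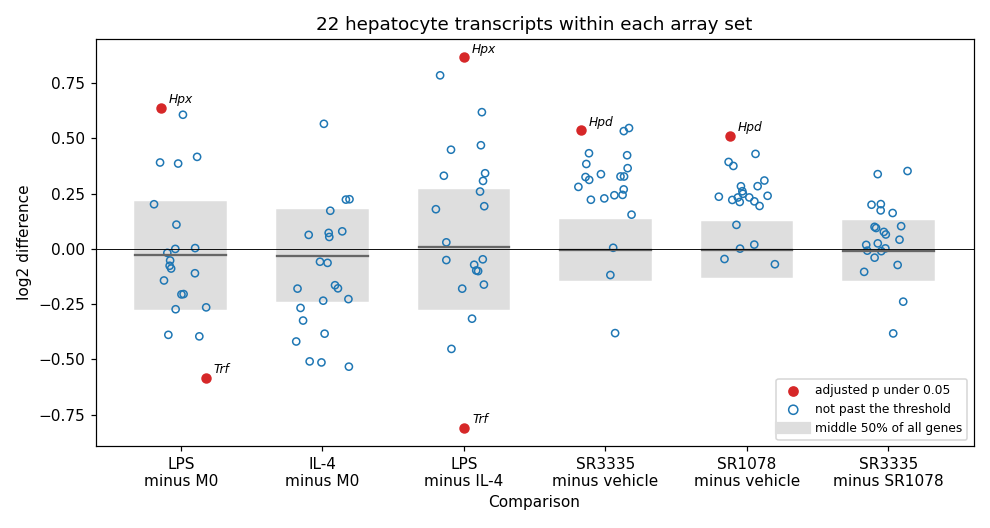
Circles are the log2 differences of the 22 kept members in the 6 comparisons made within an array set, filled red where limma's adjusted p was under 0.05, and grey boxes hold the middle 50% of all genes with a line at their median. Hpx and Trf passed in both comparisons of LPS, and Hpd, undetected in vehicle, in both of the compounds with vehicle.

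In the second set, each ROR compound was compared with vehicle, and both comparisons share the same 2 vehicle arrays. With SR3335, 1 of 22 members passed the limma threshold, against 4.63% of all genes (2.09% higher). With SR1078, 1 of 22 passed, against 1.4% (1.05% higher). The member was Hpd in each case, which was detected only on arrays of the compounds, so these counts are a description. Of the 19 members detected on all 6 arrays of the set, 0 passed for either compound. Of the 8630 genes so detected, 5.21% passed with SR3335 and 1.54% with SR1078. Between SR3335 and SR1078, where 4.59% of all genes passed, 0 of 22 members passed and 0 had an unadjusted limma p under 0.05.

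Hpd encodes 4-hydroxyphenylpyruvate dioxygenase of tyrosine breakdown. The log2 levels of Hpd were 5.26 and 5.33 in vehicle, 5.92 and 5.74 with SR3335 and 5.71 and 5.91 with SR1078. It was undetected on both vehicle arrays and detected on all 4 arrays of the compounds, and these 4 lay above vehicle. Against vehicle it was at least 1.2-fold higher with SR3335 and at least 1.18-fold higher with SR1078. Hpd was detected on no other array, so it was kept only through the arrays on which it is high, and its calls and the counts of 1 above are a description. Leaving out any 1 array of the groups compared ended both calls (limma adjusted p of 0.0528 to 0.156 and of 0.124 to 0.296).

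Most members were higher with the compounds by amounts that did not pass singly. The log2 difference was above 0 in 20 of 22 members for each compound, against 48.7% of all genes for SR3335 and 49% for SR1078. Among the 19 members detected on all 6 arrays of the set it was above 0 in 18 with SR3335 and in 17 with SR1078. The median over these 19 was 0.33 with SR3335 and 0.23 with SR1078, against -0.0052 and -0.0072 over the 8630 genes so detected. Both arrays lay above both vehicle arrays for 11 members with SR3335 (26.6% of all genes) and for 17 with SR1078 (26.5%), and among the 19 for 10 and 15. The members rise and fall together over these arrays (median r with Ttr of 0.92), so these counts are not separate observations. Both compounds were also set against the same vehicle arrays, and the 22 include Hpd, kept only through the arrays of the compounds. Ttr differed by 0.31 ± 0.21 with SR3335 and 0.21 ± 0.21 with SR1078, and Apoa1 by 0.37 ± 0.20 and 0.38 ± 0.20, with adjusted p values from 0.399 to 0.706. Apoc1 was below 0 for each compound (-0.12 ± 0.08 and -0.05 ± 0.08), as were Apoh with SR3335 (-0.38 ± 0.22) and Mat1a with SR1078 (-0.07 ± 0.21). Of the 48 further hepatocyte genes, 0 passed for either compound in limma, with medians of 0.21 and 0.15.

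A single array carried much of the difference with SR3335. In that group replicate 1 lay above replicate 2 in 22 of 22 members, by a median of 0.40, where 50.3% of all genes did so. Without replicate 1 of SR3335 the median difference from vehicle was 0.079, and without replicate 2 it was 0.559. On the same 2 arrays the further hepatocyte genes summed to 20460 and 16720. The stellate cell markers summed to 5435 and 4590, most of it from Dcn (log2 12.25 and 11.98). The macrophage markers summed to 103800 and 102000 and the endothelial markers to 16830 and 16950. The part of these in the difference was not tested.

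The replicates of the other groups differed less evenly. Replicate 1 lay above replicate 2 in 17 of 22 members with IL-4, by a median of 0.33 (46.2% of all genes), and in 11 of the 12 members detected on both of these arrays, by a median of 0.51. It did so in 14 members in M0 and 18 with LPS (49% of all genes in each), in 5 in vehicle (49%) and in 18 with SR1078 (49.7%). Without replicate 2 of IL-4 the median difference between IL-4 and M0 went from -0.17 to 0.055. The median over members of the spread between replicates was an SD of 0.27 in the first set and 0.21 in the second.

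Whether the members rise and fall together was examined within each set, by correlating each with Ttr over the 6 arrays. In the second set 18 members were detected on all 6 arrays beside Ttr. Of these, 17 had r above 0 and 14 had r of at least 0.8, with a median of 0.92. Over the 8629 genes detected on those 6 arrays the median was -0.01, and 2.86% reached 0.8. The highest values were those of Uox (0.99), Apoc3 (0.99) and Cyp2e1 (0.98), an enzyme, an apolipoprotein and a cytochrome P450. In an exact two-sided permutation test, 13 of the 18 passed after adjustment for r and 11 for the rank correlation rho. The points share arrays and normalization, and replicate 1 of SR3335 is high for most of the members.

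Ttr and Apoa1 correlated at r = 0.92 over those 6 arrays (exact two-sided permutation p = 0.00278, rho = 1 with exact p = 0.00278, adjusted p = 0.0107 for r over the 27 relations computed). In either set the permutation ran over all 6 arrays regardless of group. Both r and its p therefore take in differences between treatments as well as between replicates. Without the 2 arrays farthest from the median of Ttr, replicate 1 of SR3335 and replicate 1 of SR1078, r was 0.96. The members that did not follow Ttr were Apoc1 (r = -0.16), Mat1a (0.42) and Trf (0.60). Itih3 had r = 0.76, which turned to -0.46 without those 2 arrays, and Cyp7b1 and Fga went from 0.91 and 0.84 to 0.45 and 0.32.

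In the first set 9 members could be set beside Ttr. Of these, 8 had r above 0 and 2 had r of at least 0.8, Ambp (0.87) and Serpina1b (0.82), with a median of 0.56. Over 7815 genes the median was 0.05, and 1.97% reached 0.8. In the exact two-sided permutation test of r, 3 of the 9 passed after adjustment. These were Ambp and Serpina1b (adjusted p = 0.0075 each) and Apoa2 (r = 0.78, adjusted p = 0.0398). For rho 2 passed, Ambp and Serpina1b. Ttr and Apoa1 correlated at r = 0.58 (exact two-sided permutation p = 0.154, rho = 0.66 with exact p = 0.175, adjusted p = 0.219), and at 0.76 without replicate 2 of IL-4 and replicate 1 of LPS. Hpx (0.38) and Fga (0.49), both high with LPS, turned to -0.76 and -0.61 without those arrays, and Trf was at -0.16. Apoc1 went from 0.56 to 0.94 without those arrays. Replicate 2 of IL-4 had the lowest level of the set for Ttr, Apoa1, Apoa2, Ambp, Serpina1b, Hpx, Fga and Apoc1, while Trf on it was above both M0 arrays.

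**Figure D5:**
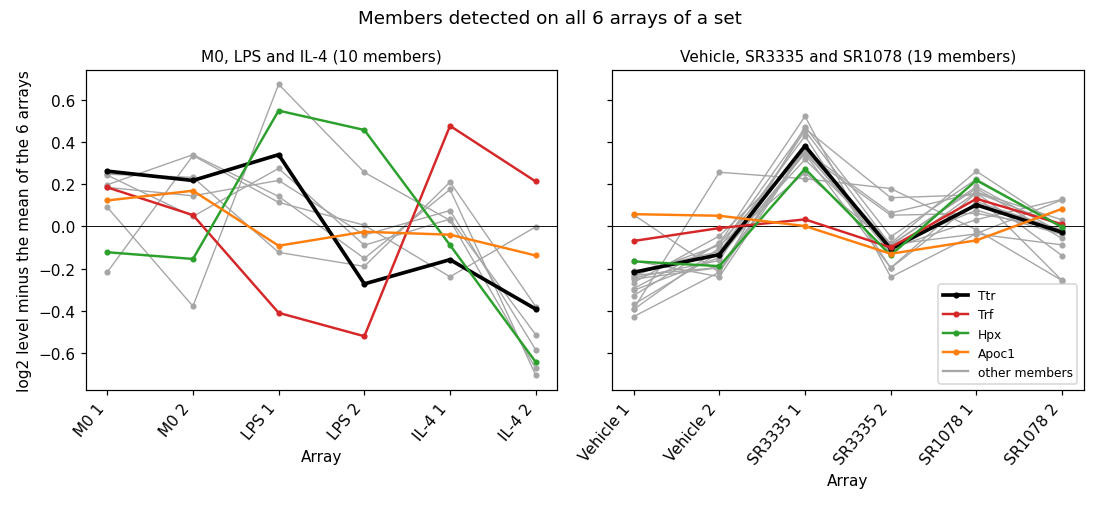
Lines join each member's log2 level on the 6 arrays of a set, minus its mean over them, for the 10 members detected throughout the first set and the 19 detected throughout the second. In the second panel most lines peak together at SR3335 1 and again, lower, at SR1078 1, with Apoc1 flat, and in the first panel Hpx and Trf part with LPS.

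The genes most like Ttr and Apoa1 were ranked by their correlation with the mean of both over all 12 arrays after each set's mean was taken off, as a description with no test. Of the 15 highest (r = 0.8279 to 0.9447), 3 were members, Apoa2 (0.91), Serpina1b (0.91) and Ambp (0.89), and 2 were on the further list, Apoc4 (0.88) and Itih4 (0.83). The highest was Pon1 (0.94), which encodes the plasma esterase paraoxonase 1. Also named were Arrb1 (0.94), Cryz (0.88), Gprasp1 (0.88), Serpinf1 (0.87), Cttnbp2nl (0.87), Serpina1c (0.83) and Ces1c (0.83), and the other 2 probes carried no symbol. Between vehicle and M0 these genes did not all go the way of Ttr, with Pon1 at 2.22 and Serpinf1 at 2.13 but Arrb1 at -2.56. Most members ranked lower in likeness. The 100 highest of the 10253 genes ranked held the same 3 of the 20 members ranked, and 9 of the 48 further hepatocyte genes.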

How the data were processed

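Bead signals of 25697 probes on 12 arrays were deposited by the authors as intensity values with no background subtraction or normalization between arrays, made with GenomeStudio 2011.1, per the submitters' processing notes. A detection p-value stands beside each signal, per the file headers. The authors also deposited processed log2 values, which quantile normalization of the signals within each array set matched to within 0.02 for 25667 probes. No genome build is given in the sources used here.

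In limma 3.58.1 (R 4.3.3) background was removed by normexp, which read the negative control levels off the detection p-values. After an offset of 16 came quantile normalization of all 12 arrays and the log2 scale. A probe was kept if detected (p under 0.05) on 2 or more arrays, and the brightest kept probe on average stood for its gene. Probe symbols came from the platform annotation (23978 probes with 1 and 1719 without). A model with 1 mean per group (6 residual degrees of freedom) gave moderated tests, with Benjamini-Hochberg adjustment over 10255 genes in each of 7 comparisons. The SE after ± therefore rests on the spread in all 6 groups. A member undetected on both arrays of a group has only a lower bound of its fold. The fit was tested on simulated data. Groups come from the labels.

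The members, the gene lists and the rule for naming genes were chosen with earlier results of these data known. Values on every array are given for Alb, Ttr, Apoa1 and members past the threshold within a set, and up to 4 passing genes of each further list with the largest differences are named. The macrophage markers C1qb and Clec4f are named besides. Correlations planned with Alb used Ttr instead, a choice made after seeing that Alb was undetected. Over all genes same-numbered replicates did not deviate together (correlations of -0.017 to 0.097). Over the members the correlations ran from -0.29 to 0.165, and no pairing was used. Sequences are from RefSeq (GRCm38.p6). Plots used Python 3.11.15 with pandas 2.3.3 and matplotlib 3.10.9.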

Additional observations from a re-analysis of the deposited data

How the results depend on the processing

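Of 573 results for named members under alternative settings, 524 kept direction and side of the threshold, 38 no longer passed, 3 newly passed and 8 reversed. Member counts past the threshold were as follows where they differed from those of the fit used. Vehicle against M0 gave 22 in that fit, 17 in the authors' values, 21 with median centring, without a filter and with only the compared groups, 19 of 19 with detection on at least 6 arrays and 26 of 28 probes with every kept probe. LPS against M0 gave 1 with each set fitted on its own, and 3 with normexp lacking negative controls, in the authors' values, with a variance trend, with only the compared groups and with every kept probe. IL-4 against M0 gave 1 without background correction, with median centring and in the authors' values, and 2 with a variance trend. LPS against IL-4 gave 1 with only the compared groups, 3 with a variance trend and with detection on at least 6 arrays, and 5 of 28 probes with every kept probe. SR3335 against vehicle gave 0 without background correction, with normexp lacking negative controls, with detection on at least 6 arrays, with a variance trend and with only the compared groups, and 2 in the authors' values. SR1078 against vehicle gave 0 in those settings, in the authors' values, with each set on its own, without a filter, with the replicate block and with every probe. Leaving out 1 array gave 1 to 2 members for LPS against M0, 0 to 2 for IL-4 against M0, 2 to 5 for LPS against IL-4, 0 to 0 for each compound, 0 to 1 between compounds and 21 to 21 for vehicle against M0. With the replicate number as a block, though nothing pairs the samples, the counts in the order of these comparisons were 2, 0, 3, 1 (SR3335), 0 (SR1078), 0 and 21. With 1 array left out, log2 differences changed sign for Ttr in LPS against M0 (range -0.511 to 0.1), Apoa1 in LPS against IL-4 (-0.366 to 0.223), and between the compounds Ttr (-0.144 to 0.344) and Apoa1 (-0.209 to 0.189). They also changed sign in the authors' values for vehicle against M0 Rbp4 (-0.225), Apoc1 (0.084) and Hpd (-0.163). The causes were not tested. The correlation of Ttr with Apoa1 kept its side under every setting run, the correlations planned with Alb were not run since Alb was undetected, and vehicle against M0 cannot be fitted with each set on its own. Members near background carry the least precision.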

Other observations

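Of the 22 kept members, 6 (Hpx, Ahsg, Apoc1, Fga, Serpina1a and Serpina1b) had a second kept probe. In a fit with every kept probe, both probes of a gene gave the same call in 38 of 42 pairs of results, and in 0 they passed in opposite directions. The second probe of Apoc1 passed where the first did not, with log2 -0.43 for LPS against M0 (limma adjusted p = 0.00224) and -0.22 for LPS against IL-4 (0.0391). The second probe of Fga was at 0.91 for LPS against IL-4 (limma adjusted p = 0.0138), beside 0.79 for the probe used. The second probe of Hpx missed the threshold for LPS against M0 (0.47, limma adjusted p = 0.057). Between vehicle and M0 the probes of Ahsg gave 4.29 and 3.08 and those of Serpina1a 2.06 and 3.17.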
